A study of Rattus norvegicus with 12 samples.

Results

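Voltage-gated sodium channels were followed here through 9 subunit genes, Scn1a, Scn2a, Scn3a, Scn7a, Scn8a, Scn9a, Scn11a, Scn3b and Scn4b, over expression arrays of cultured rat hippocampal neurons. Each channel is built around 1 large alpha subunit that forms the pore, and smaller beta subunits set its gating and its place in the membrane. Opening of the pore carries the rising phase of the action potential, and the alpha subunits differ in where they act: Scn1a is prominent in inhibitory interneurons, Scn2a and Scn8a at the axon initial segment of excitatory neurons, Scn3a in the developing brain, and Scn9a and Scn11a in peripheral sensory neurons. Scn7a encodes an atypical alpha subunit that senses extracellular sodium and is known from glia and other non-neuronal cells. Tetrodotoxin plugs the pore of most of these channels, and the Scn11a channel is among those known to resist it.

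Every probe whose gene name in the array files was one of these symbols was taken, with Scn2a listed there as Scn2a1. This gave 13 of the 41012 probes on the array. The rule itself used names and no measured value, though the family was picked with earlier results of these data known.

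Hippocampal neurons of Sprague-Dawley rat embryos (E18.5) were grown as high-density dissociated cultures and treated at 10 to 13 days in vitro for 48 h. The 3 groups were CTL (vehicle, labelled as 0.1% DMSO although the methods name water for the array cultures), TTX (tetrodotoxin at 0.5 to 1 µM, which blocks action potentials) and BC (bicuculline at 20 µM, a GABA-A receptor blocker that raises activity). Each group had 4 one-colour arrays. Per the methods these carried 4 RNA samples of a treatment, and whether those came from separate cultures is not stated for the arrays, so the p-values below cover array-to-array spread, possibly technical, and nothing wider. RNA came from whole cultures, so fewer cells of a type and less RNA per cell cannot be told apart.

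Between 74.1% and 78.1% of probes were well above background on an array. Each of the 4 slides carried 1 array of each group, and slides 1 and 3 (set A) stood apart from slides 2 and 4 (set B) in every group. The neuronal label held in the markers: all 5 measured pan-neuronal markers were well above background on all 12 arrays, Tubb3 (neuronal tubulin) being the brightest. All 8 astrocyte markers and all 16 interneuron markers also passed on every array, while 3 of 6 microglial markers did.

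Array probes of this platform are 60 bases long and each reads 1 short stretch of a transcript, so a result for a gene is a result for that stretch. The first 30 bases of the probes on which the results turn are given here, 5′ to 3′ as the array carries them, with no letter singled out. The pair for Scn9a is included because its probes gave different results.
Scn1a: caggttgatatcacgatcacttttcttact
Scn7a: gtatttcttgcaacttgaagaaaatgaccc
Scn9a probe 1: gtggagagatggattctcttcgttcacaga
Scn9a probe 2: tctaaagaaagcaatcaagaattgctccca
Scn11a: gggtgttcctaccagcatcacagaattggg
Scn3b: gactcaacgctctctgtgtcaagtactagg

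In the rat assembly rn4, the array annotation placed the Scn1a probe at chr3:48239066-48239125, the Scn9a probes at chr3:48442413-48442472 and chr3:48438851-48438910, and the Scn7a probe at chr3:48633684-48633743, all on the minus strand. The Scn3a probe lay on the same strand at chr3:47496272-47496331, and the Scn2a probes on the plus strand at chr3:47722600-47722659 and chr3:47720286-47720345, so 5 of the 9 genes were read from 1 stretch of chromosome 3. The Scn8a probe that could be placed was at chr7:139793908-139793967 on the plus strand. On chromosome 8 lay the probes of Scn3b (chr8:43253930-43253989, plus), Scn4b (chr8:48106487-48106546 and chr8:48100318-48100377, plus) and Scn11a (chr8:124724572-124724631, minus). The exon or untranslated region of each probe was not determined here.

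Signals are given as log2 of the background-subtracted spot signal after quantile normalization, always in the order of replicates 1 to 4. A probe was called different when limma's adjusted p (Benjamini-Hochberg over all probes) was below 0.05 and the change was at least 1.5-fold in either direction. Of the 13 probes, 11 were measured, meaning well above background on 11 or 12 of the arrays, and for the other 2 no array passed that flag.

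After 48 h, Scn1a and Scn7a had fallen in TTX, Scn11a had risen and Scn3b and 1 probe of Scn9a had fallen in BC, and the remaining probes did not pass in either comparison with CTL. In TTX against CTL, 2 of 13 probes were called, both lower, against 4.19% of all probes. In BC against CTL, 3 of 13 were called, 1 higher and 2 lower, against 3.64% of all probes. In TTX against BC, 4 of 13 were called, 1 higher and 3 lower, against 11.2% of all probes. The 3 comparisons share arrays, so they are not independent of each other.

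The median log2 difference of the 11 measured probes was -0.18 in TTX against CTL and 0.20 in BC against CTL, beside 0.01 and -0.01 over all probes. Differences ran from -1.16 to 0.25 under TTX and from -0.82 to 1.11 under BC, so each treatment had members on both sides of 0. On adjusted p alone, without the fold, 2 probes passed in TTX against CTL (9.89% of all probes), 4 in BC against CTL (8.20%) and 8 in TTX against BC (24.1%). Groups of 4 arrays did not overlap for 5 probes in TTX against CTL (15.8% of all probes), of which the undetected Scn4b probe was 1, for 5 in BC against CTL (13.8%) and for 6 in TTX against BC (26.6%).

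**Figure D1:**
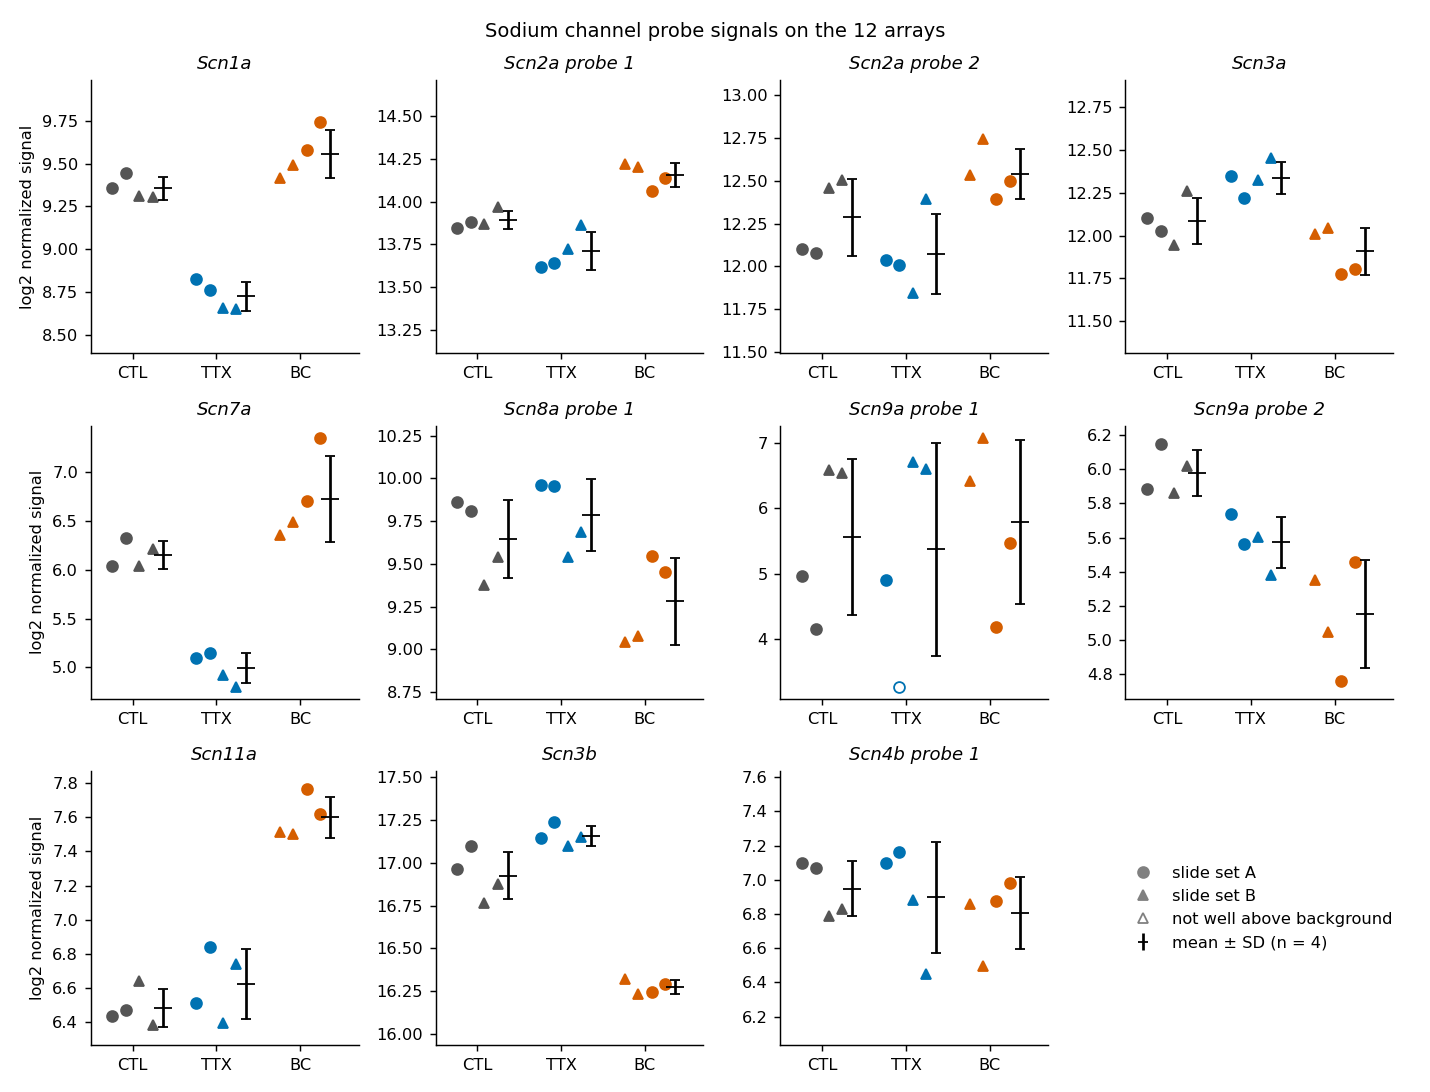
Log2 normalized signal (y axis) of the 11 measured sodium channel probes in CTL, TTX and BC (x axis); each point is 1 array, circles are slide set A, triangles slide set B, an open symbol is a spot not well above background, and the bar is the mean ± SD (n = 4). Scn1a and Scn7a lie lowest in TTX, Scn11a highest and Scn3b lowest in BC, and Scn9a probe 1 separates by slide set (3.27 to 5.48 in set A, 6.42 to 7.08 in set B).

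Scn1a encodes the alpha subunit best known from fast-spiking interneurons. Its signals were 9.36, 9.45, 9.31 and 9.30 in CTL, 8.83, 8.76, 8.66 and 8.65 in TTX, and 9.42, 9.49, 9.58 and 9.74 in BC. All TTX arrays lay below all CTL arrays, while 3 of the 4 BC arrays lay above the CTL range and 1 within it. The log2 difference was -0.63 (SE 0.0786, adjusted p = 0.000641) in TTX against CTL, a fall of 1.55-fold with a 95% interval of 1.37 to 1.75, so the fold threshold lay inside the interval. With normexp background correction the difference was -0.57 and in the deposited log2 values -0.58, both just under that threshold. In BC against CTL it was 0.20 (SE 0.0786, adjusted p = 0.171), and TTX lay 0.83 below BC on the log2 scale (log2 difference -0.83, adjusted p = 2.61e-05). Within the slides the TTX difference was -0.60, -0.66, -0.62 and -0.65 on slides 1 to 4, the narrowest spread among the called probes.

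Interneuron markers moved in the same arrays as Scn1a. Of 16 GABAergic markers, 10 fell and 1 rose in TTX against CTL, with a median log2 difference of -0.88. Cort, which encodes cortistatin, fell most (log2 difference -3.95), followed by Sst, the somatostatin gene and the brightest marker of the list (-1.69), and Gad1, a GABA-synthesising enzyme (-1.56). The log2 of the list's summed signal, which the brightest markers largely set, ran from 18.48 to 18.70 in CTL. It ran from 17.47 to 17.65 in TTX and from 18.86 to 19.10 in BC, and no marker of the list was at background. In BC against CTL, 3 of the 16 rose and 1 fell, with a median of 0.15. Cort rose by 1.19 and Vip, a peptide of another interneuron class, by 1.09, and Calb2, a calcium-binding protein gene, fell by 0.80 on the log2 scale. Over the other settings 7 to 12 of the 16 were called in TTX against CTL and 0 to 5 in BC against CTL, the 0 being the setting that averaged arrays by slide set. The part of these cells in the Scn1a result was not tested.

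Scn2a, the main alpha subunit of excitatory axons, was read by a pair of probes that ran alike. Probe 1 gave 13.85, 13.88, 13.87 and 13.97 in CTL, 13.62, 13.64, 13.72 and 13.86 in TTX, and 14.22, 14.20, 14.06 and 14.14 in BC. The BC arrays all lay above the CTL arrays, and TTX and CTL overlapped only through replicate 4 of TTX. The BC difference was 0.26 on the log2 scale (SE 0.0674, adjusted p = 0.037), under the 1.5-fold threshold, and the TTX difference was -0.18 (adjusted p = 0.132).

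Probe 2 of Scn2a gave 12.10, 12.08, 12.46 and 12.51 in CTL, 12.04, 12.01, 11.84 and 12.39 in TTX, and 12.53, 12.74, 12.39 and 12.50 in BC, with overlap between every pair of groups. Its log2 differences were -0.21 (adjusted p = 0.449) under TTX and 0.26 (adjusted p = 0.378) under BC, of the same size as those of probe 1 but with a wider spread. TTX lay below BC for both probes, by log2 differences of -0.45 (adjusted p = 0.000684) and -0.47 (adjusted p = 0.0319), again under the fold threshold. Within slides, all 4 TTX differences were negative and all 4 BC differences positive for both probes. With the replicate block the adjusted p was 0.092 for probe 1 in BC against CTL and 0.0547 for probe 2 in TTX against BC. That block joins arrays of the same number, and each BC array lay on the other slide set from the CTL and TTX arrays of its number.

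Another probe, which names this channel only in its description and so was outside the 13, differed from that pattern. Its log2 difference was 0.23 (adjusted p = 0.297) in TTX against CTL, -0.15 (adjusted p = 0.59) in BC against CTL and 0.37 (adjusted p = 0.0373) in TTX against BC. TTX was thus above BC at this probe and below BC at the other probes of the gene, with none of the differences at 1.5-fold. It was placed at chr3:47649986-47650609 on the plus strand of rn4, a span longer than the probe, toward the start of the gene relative to the named pair.

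Scn3a, an alpha subunit expressed mainly before and around birth, stood at 12.11, 12.03, 11.94 and 12.26 in CTL, 12.35, 12.22, 12.32 and 12.45 in TTX, and 12.01, 12.04, 11.78 and 11.80 in BC. The TTX arrays all lay above the BC arrays, and CTL overlapped both. The log2 difference was 0.25 (SE 0.0904, adjusted p = 0.118) in TTX against CTL and -0.18 (adjusted p = 0.335) in BC against CTL. Between TTX and BC it was 0.43 (adjusted p = 0.00534), the opposite direction to Scn1a and Scn2a and under the fold threshold.

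Scn8a, the alpha subunit that dominates the mature axon initial segment, had 1 measured probe, at 9.86, 9.81, 9.38 and 9.54 in CTL, 9.96, 9.95, 9.54 and 9.69 in TTX, and 9.05, 9.08, 9.54 and 9.45 in BC. Arrays of slide set A were the higher ones in each group, and all groups overlapped. Within slides, BC lay below CTL by log2 differences of -0.32, -0.30, -0.36 and -0.49, and TTX above CTL by 0.09, 0.31, 0.15 and 0.00. The fit without a slide term gave -0.37 (SE 0.157, adjusted p = 0.227) for BC and 0.14 (adjusted p = 0.708) for TTX, and with the slide set as a block the adjusted p for BC was 0.00138, still under the fold threshold. TTX exceeded BC by 0.51 (adjusted p = 0.0381), and by the replicate block that p was 0.0946. The other Scn8a probe was below that detection flag on all 12 arrays, and no fold is given for it.

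**Figure D2:**
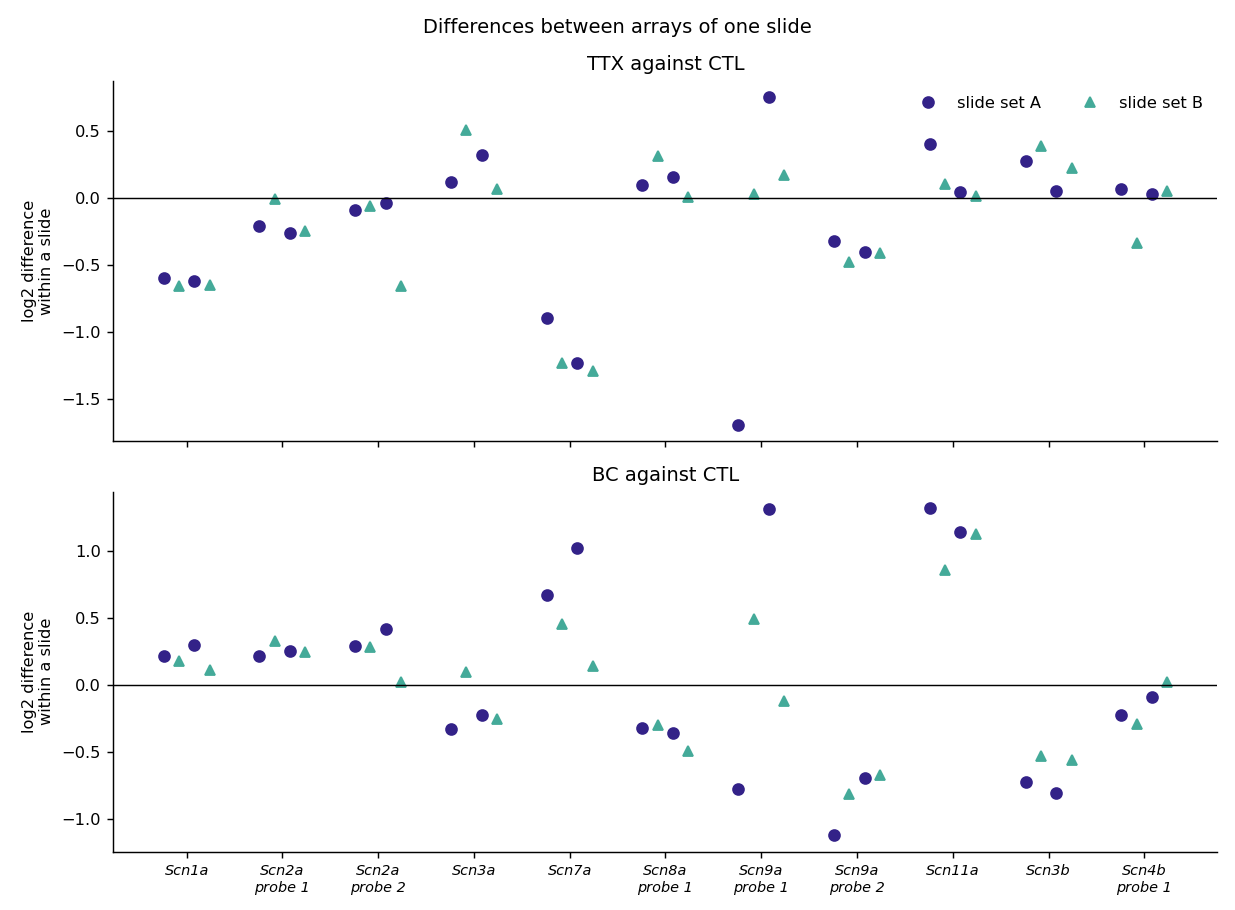
Log2 difference between the treated and the CTL array of the same slide (y axis) for each measured probe (x axis), TTX above and BC below; each probe has 4 points, circles for slide set A and triangles for set B. Scn1a and Scn7a lie below 0 on every slide under TTX, Scn11a above and Scn3b and Scn9a probe 2 below 0 on every slide under BC, and the points of Scn9a probe 1 fall on both sides of 0.

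Scn9a encodes an alpha subunit of pain-sensing neurons, and its probes differed from each other. Probe 2 gave 5.88, 6.15, 5.86 and 6.02 in CTL, 5.74, 5.56, 5.61 and 5.38 in TTX, and 5.35, 5.05, 4.76 and 5.46 in BC. Both treated groups lay wholly below CTL. The log2 difference was -0.82 (SE 0.146, adjusted p = 0.00603) in BC against CTL, a fall of 1.77-fold with a 95% interval of 1.41 to 2.21, and -0.41 (adjusted p = 0.121) in TTX against CTL. The BC call was lost with normexp background correction (-0.37), without background subtraction (-0.39), in the deposited log2 values (-0.37) and with the slide set within a group as a random block (adjusted p = 0.0663).

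Probe 1 of Scn9a, by a small margin the brighter of the pair, gave 4.97, 4.16, 6.58 and 6.53 in CTL, 4.91, 3.27, 6.70 and 6.61 in TTX, and 6.42, 7.08, 4.19 and 5.48 in BC. Every low value came from slide set A and every high value from set B, whatever the treatment, and replicate 2 of TTX was not well above background. The log2 difference in BC against CTL was 0.23 with a 95% interval of -1.75 to 2.21 (adjusted p = 0.974), which holds the value of probe 2. Within the sets it was 0.27 in set A and 0.19 in set B, where probe 2 gave -0.91 and -0.74. The fall under BC therefore rests on 1 probe of the gene.

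Scn11a, an alpha subunit of peripheral nociceptors whose channel resists tetrodotoxin, stood at 6.44, 6.47, 6.64 and 6.38 in CTL, 6.52, 6.84, 6.40 and 6.74 in TTX, and 7.51, 7.50, 7.76 and 7.62 in BC. The BC arrays lay clear of all others, while TTX and CTL overlapped. It rose in BC against CTL by 1.11 on the log2 scale (SE 0.107, adjusted p = 0.000156), which is 2.16-fold with a 95% interval of 1.84 to 2.55. The rise was present on every slide, at 1.32, 0.86, 1.15 and 1.13. In TTX against CTL the log2 difference was 0.14 with a 95% interval of -0.10 to 0.38 (adjusted p = 0.535).

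Peripheral sensory neuron markers were set beside Scn11a, as a list with a median log2 difference of -0.10 in BC against CTL. Prph, an intermediate filament gene, fell in TTX (-0.69, adjusted p = 0.000503) and differed by 0.17 in BC against CTL (adjusted p = 0.287). Calca, the calcitonin gene-related peptide gene and the brightest of the list, differed by -0.07 in BC against CTL. The log2 of the list's summed signal ran from 12.83 to 14.20 in CTL and from 12.59 to 14.12 in BC. Isl1, a transcription factor of these cells, was not well above background on all arrays of any group. A further probe, described as a variant of this channel, was undetected by the same flag on all 12 arrays.

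Scn7a, the sodium-sensing alpha subunit, showed the largest TTX difference of the 11 measured probes. Its signals were 6.04, 6.33, 6.04 and 6.22 in CTL, 5.10, 5.14, 4.93 and 4.80 in TTX, and 6.36, 6.49, 6.71 and 7.35 in BC. The 3 groups did not overlap, with TTX lowest and BC highest. In TTX against CTL it fell by 1.16 on the log2 scale (SE 0.189, adjusted p = 0.00317), a fall of 2.24-fold with a 95% interval of 1.68 to 2.99. In BC against CTL the log2 difference was 0.57 with a 95% interval of 0.15 to 0.99 (adjusted p = 0.102), with replicate 4 of BC highest. TTX lay 3.33-fold below BC (log2 difference -1.74, adjusted p = 7.14e-05).

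The Scn7a probe was dim, and the size of its change differed with how background was handled. The TTX difference was -0.52 (adjusted p = 0.0121) with normexp correction and -0.58 (adjusted p = 0.00962) without subtraction, both under the fold threshold. Of 8 marker genes of connective tissue and vessel cells, 2 fell in TTX (1 to 2 called over the other settings) and 2 rose in BC (0 to 2). As a list they had a median log2 difference of 0.02 in TTX against CTL and 0.08 in BC against CTL. The called genes were the matrix proteoglycan genes Lum, the brightest of the list (log2 difference -0.98 in TTX, 0.85 in BC), and Dcn (-0.62 in TTX, 0.87 in BC). The log2 of the list's summed signal, which the brightest genes largely set, ran from 13.52 to 13.84 in CTL. It ran from 13.05 to 13.28 in TTX and from 14.22 to 14.33 in BC, with 1 of the 8 markers at background on all arrays of each group. Of the 8 astrocyte markers, limma called 0 in each comparison (1 for TTX and 0 for BC against CTL at an unadjusted p below 0.05), and Slc1a3, a glutamate transporter gene, was the brightest. The part of these cells in the Scn7a result was not tested.

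Scn3b encodes a beta subunit that assists trafficking and gating of the pore. Its signals were 16.96, 17.10, 16.77 and 16.88 in CTL, 17.15, 17.24, 17.10 and 17.15 in TTX, and 16.32, 16.24, 16.24 and 16.29 in BC. The groups did not overlap, though the highest CTL array (17.0964) and the lowest TTX array (17.0968) all but met, and no spot was saturated. In BC against CTL it fell by 0.65 on the log2 scale (SE 0.0719, adjusted p = 0.000331), a fall of 1.57-fold with a 95% interval of 1.41 to 1.76, and TTX lay 0.23 above CTL (adjusted p = 0.0705). In the deposited log2 values the BC difference was -0.56, under the fold threshold. TTX exceeded BC by 0.89 (adjusted p = 8.98e-06), or 1.85-fold, the opposite direction to Scn1a, Scn7a and Scn11a.

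Scn4b, a beta subunit linked to resurgent current in fast-firing neurons, had 1 measured probe, at 7.10, 7.07, 6.79 and 6.83 in CTL, 7.10, 7.16, 6.88 and 6.45 in TTX, and 6.86, 6.50, 6.88 and 6.98 in BC. All groups overlapped. Its log2 differences were -0.05 with a 95% interval of -0.41 to 0.31 in TTX against CTL (adjusted p = 0.948) and -0.14 with an interval of -0.50 to 0.22 in BC against CTL (adjusted p = 0.75). The other Scn4b probe failed the detection flag on all 12 arrays, so it has no fold.

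**Figure D3:**
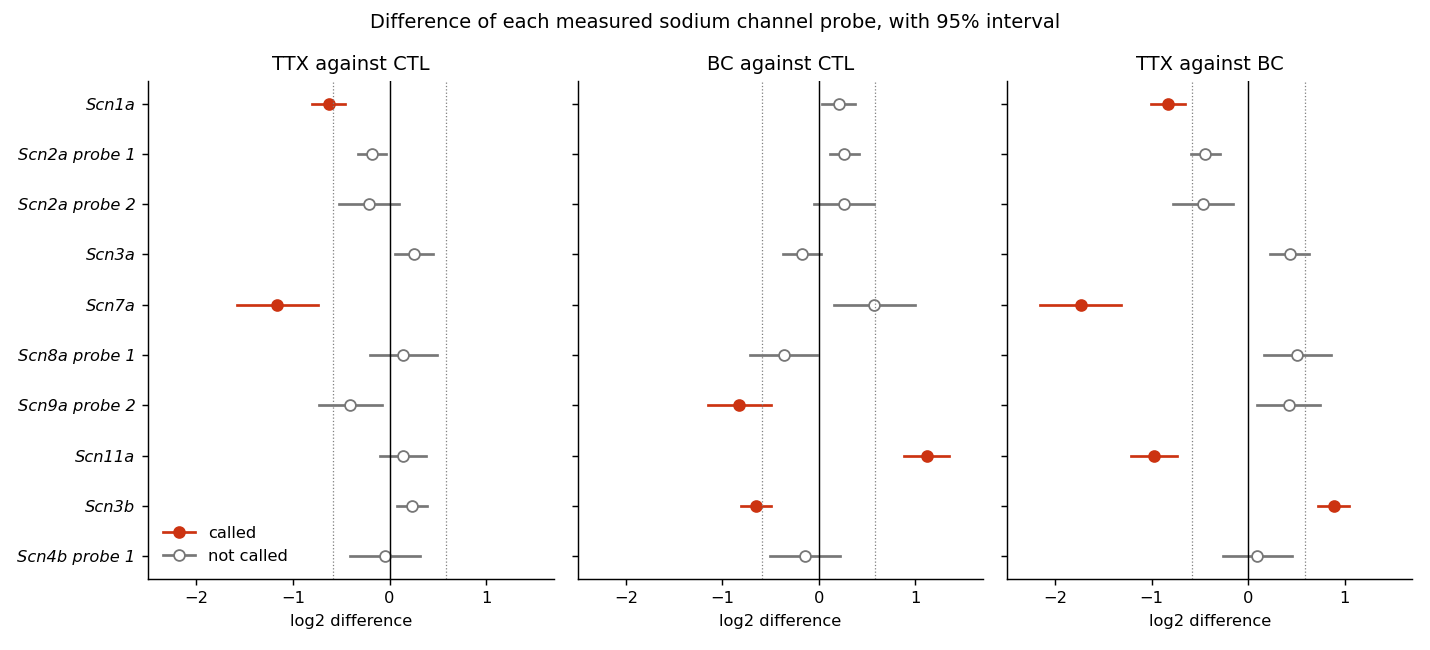
Log2 difference (x axis) with its 95% interval for 10 measured probes (y axis) in the comparisons of TTX with CTL (left), BC with CTL (middle) and TTX with BC (right); filled red points are called, open grey points are not, and dotted lines mark 1.5-fold. Scn9a probe 1, whose intervals reach from -2.40 to 2.21, is left out so that the others can be read, and Scn7a has the largest TTX differences.

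Set directly against each other, TTX and BC separated the subunits into opposite directions. Scn1a, Scn7a, Scn11a and both named Scn2a probes were lower in TTX than in BC, and Scn3a, Scn8a and the beta subunit Scn3b were higher. The further Scn2a probe outside the 13 was also higher (log2 difference 0.37, adjusted p = 0.0373). TTX and BC arrays overlapped for Scn2a probe 2 and Scn8a. All 8 of the named probes here passed on adjusted p, and Scn1a, Scn7a, Scn11a and Scn3b also passed on the fold. These 4 calls held under all 26 other settings. By contrast, no call against CTL held when a group's arrays on one slide set were first averaged and set entered the model as a block, which left few degrees of freedom. That setting called 0 of all 41007 probes tested in BC against CTL and 512 of 41009 in TTX against CTL. Adjusted p was then 0.0546 for Scn1a and 0.0709 for Scn7a in TTX, and 0.0688 for Scn11a, 0.0823 for Scn3b and 0.074 for Scn9a probe 2 in BC.

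The proteins that hold these channels at the axon initial segment, or bind them, were looked up from a list of 21 genes. Of 17 such genes measured, limma called 1 in TTX against CTL and 0 in BC against CTL (9 and 8 at an unadjusted p below 0.05). The medians were 0.00 and -0.03, and Sptan1, a spectrin gene, was the brightest. Cntn2, a cell adhesion gene of axons, rose in TTX (log2 difference 0.62) with an adjusted p of 0.000174. Without the fold threshold 4 were called in TTX against CTL, 1 higher and 3 lower. By the other settings tried, between 0 and 4 of the 17 were called in TTX against CTL and between 0 and 5 in BC against CTL. In TTX against BC 4 were called: Cntnap1, a paranodal adhesion gene, fell by 0.92, Fgf12, whose product binds the channel's tail, fell by 0.82 and Nedd4l, a ubiquitin ligase of ion channels, fell by 0.73, while Cntn2 rose by 0.98.

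The sodium pump, which restores the gradient the channels use, had 12 subunit genes measured. By limma, 0 of them were called in any of the comparisons, with medians of 0.03 for TTX and 0.00 for BC against CTL. At an unadjusted p below 0.05 the numbers were 4 for TTX and 2 for BC against CTL, and 6 for TTX against BC. The other settings called 0 to 2, 0 and 0 to 4 of them. The brightest was Atp1b1, a beta subunit of the pump, at a log2 difference of -0.25 in TTX against CTL and -0.08 in BC against CTL.

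**Figure D4:**
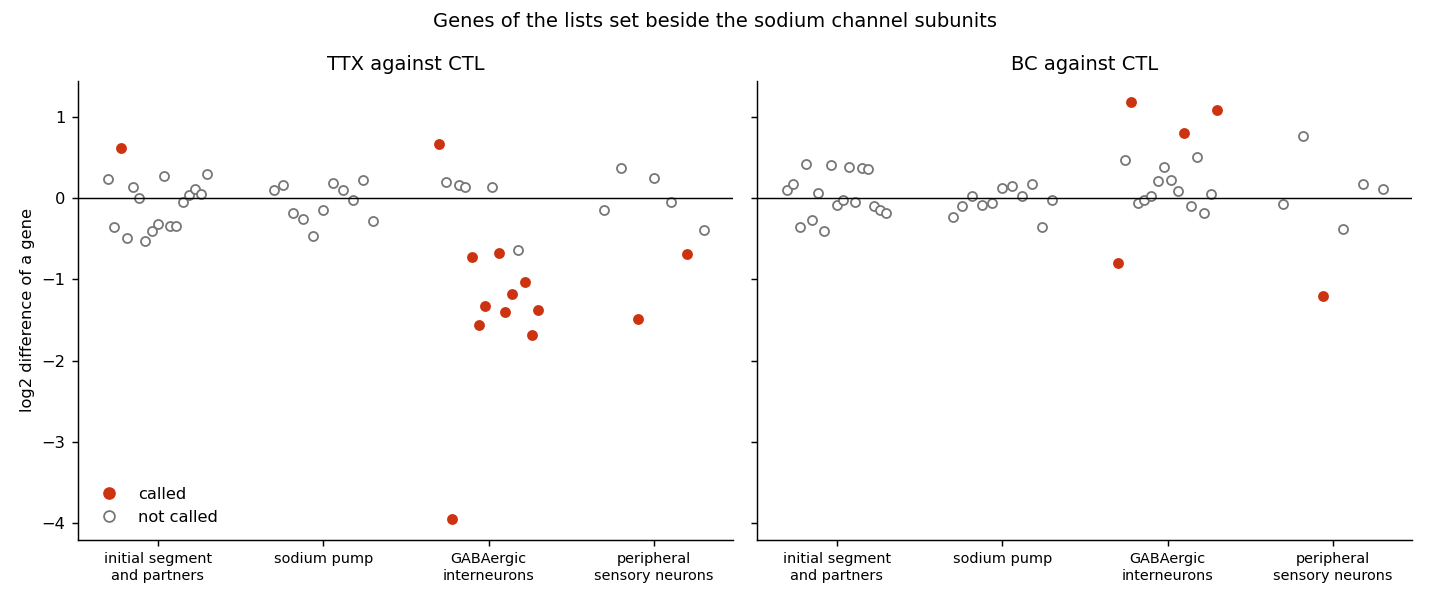
Log2 difference (y axis) of each gene of 4 lists (x axis), by its brightest probe and where all 4 arrays of a group were well above background, in TTX against CTL (left) and BC against CTL (right); filled red points are called and open grey points are not. Among axon initial segment and partner genes 1 is called under TTX and 0 under BC, while 11 interneuron markers are called under TTX and 4 under BC.

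The remaining marker lists were set beside the subunits in the same way. Of 5 glutamatergic neuron markers, 2 rose in TTX against CTL (1 to 2 called over the other settings) and 2 fell in BC against CTL (0 to 2), the transcription factor gene Neurod2, the brightest of them, by log2 differences of 0.75 and -0.72. The vesicular glutamate transporter gene Slc17a6 rose in TTX (0.59), and Prox1, a granule cell transcription factor, fell in BC (-0.72). Of the oligodendrocyte lineage, the precursor receptor gene Pdgfra fell in TTX against CTL (-0.79), 0 of 9 markers were called by limma in BC against CTL (0 at an unadjusted p below 0.05), and the transcription factor Olig1 was the brightest. By limma, 0 of 5 pan-neuronal markers (2 at an unadjusted p below 0.05 in each) and 0 of 6 microglial markers (2 for TTX and 1 for BC) were called against CTL, and Cd68 was the brightest microglial marker.

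Genes whose signal ran most like that of a called subunit were sought among 6596 or 6597 genes well above background on all arrays, as a description over the 12 arrays, which share their treatments and slides. Scn7a was closest to Scn1a (Pearson r = 0.986), then to Trappc1 (0.98) and Akap7 (0.978). Nearest to Scn1a were Ypel4 (0.993), the cholecystokinin receptor gene Cckbr (0.989) and the vitamin transporter gene Slc5a6 (0.988). Scn11a ran closest to Fcer2 (0.974), Tnni3k (0.966) and the transcription factor gene Lef1 (0.963). For Scn3b these were Podxl (0.993), Cst6 (0.992) and the small GTPase gene Rnd3 (0.989).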

How the data were processed

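Total RNA was labelled with Cy3 and hybridised to 12 Agilent whole rat genome arrays. Per the file headers, Feature Extraction 9.5.1.1 gave the deposited spot intensity, background-subtracted by the authors' scanner software, with probe positions on rn4; the deposited table of log2 values was used as an alternative (quantile-normalized, ranking as the median spot signal). Here log2 intensities, with outlier spots left out, were quantile-normalized and fitted with limma 3.58.1 in R 4.3.3. The fit took 1 mean per group over all 12 arrays, without a pseudocount or filter on dim probes. It was also run on simulated data without slide sets and with changes at brighter probes only, which cannot speak for slide effects or dim probes. Alternatives changed the background correction, scaling, dim-probe and outlier filters, slide and replicate blocks, arrays fitted and fold threshold, and left out each array in turn. The number of arrays limits the precision. The members and lists were chosen with earlier results of these data known. Named were all members with every probe, up to 4 called genes per pathway list and comparison, up to 3 per marker list and its brightest marker, and the 3 most alike genes of each called leading probe. The sodium leak channel list had no probe by name, and other genes of the family and some called genes of the marker lists are not reported here.

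Replicate numbers were checked for pairing: same-numbered TTX and CTL arrays deviated together from their group means (correlations 0.28 to 0.38) and same-numbered BC and CTL arrays oppositely (-0.35 to -0.24), since a number shared a slide set in the former and not in the latter. The numbers come from the sample titles.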

Additional observations from a re-analysis of the deposited data

How the results depend on the processing

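All 26 alternatives were run on the 11 measured probes in 3 comparisons. Of 858 values, 826 kept their direction and their side of the threshold. In TTX against CTL, the 2 called probes became 0 with normexp background, 1 with no background subtraction, 0 with the deposited log2 values and 0 with arrays averaged by slide set and blocked; in BC against CTL, the 3 became 1 with the deposited values, 2 with normexp background, 2 with no background subtraction, 2 with the slide set as a random block and 0 when averaged and blocked, where few degrees of freedom remain and 0 of all probes were called. In TTX against BC, the 4 became 8 without a fold threshold. Leaving out each array in turn gave 2 to 2, 3 to 3 and 4 to 5 called probes. With the replicate block the counts were 2, 3 and 4, and no call changed.

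Sign changes came only with an array left out and only for uncalled probes. For Scn9a probe 1, the log2 difference with an array left out ran from -0.65 to 0.51 in TTX against CTL, from -0.24 to 0.77 in BC against CTL and from -0.96 to 0.28 in TTX against BC. It became 0.15 without CTL replicate 3, 0.14 without CTL replicate 4 and 0.51 without TTX replicate 2 in the first; in BC against CTL, -0.24 without CTL replicate 2 and -0.20 without BC replicate 2; in TTX against BC, 0.01 without BC replicate 2 and 0.28 without TTX replicate 2. For Scn4b probe 1 it ran from -0.14 to 0.10 in TTX against CTL and from -0.0076 to 0.24 in TTX against BC. It became 0.002 without CTL replicate 1 and 0.10 without TTX replicate 4 in TTX against CTL, and -0.0076 without BC replicate 2 in TTX against BC. Scn7a, Scn9a and Scn11a had low signals, which limits them, and their called differences shrank where background was not subtracted. Those of the brighter Scn1a under TTX and Scn3b under BC were also smaller in the deposited log2 values. The cause of these and the other shifts was not tested.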
